A study of Anser anser with 16 samples.

Results

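The genes described here are ALDH1A1 and ALDH1A3, which encode enzymes that make retinoic acid, and RARRES1, which is named for its response to retinoic acid. They were chosen by their gene names, with earlier results of these data known, for their levels in the goose pituitary and their difference with growth rate there. They are 3 of the 19448 genes with counts in the main table, and all 3 passed the filter on low counts. Values of the growth contrast in the pituitary and of the contrast between tissues were part of that choice, so for these genes they are given as a description, with no test.

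The study sequenced RNA of pituitary and hypothalamus from 8 males of the W33 strain of White Kołuda geese at day 108, with 4 birds of low growth rate (numbered 33, 37, 38 and 40) and 4 of high growth rate (49, 50, 52 and 54). The birds came from a flock housed in pens and later given free range under an oat-fattening system, and no treatment separates the groups. Each bird gave 1 library per tissue, so there were 16 libraries, and the sources used here do not say how growth rate was graded. Whole tissue was used, so fewer cells of a type and less RNA per cell cannot be told apart. Totals were 11175363 to 14456667 counts in the low growth pituitary, 8543585 to 13464132 in the high growth pituitary, 9186728 to 11346496 in the low growth hypothalamus and 11121872 to 18068056 in the high growth hypothalamus. The tissue labels matched their markers. All 7 named endocrine markers of the pituitary, among them POU1F1, PRL, CGA and POMC, were higher in the pituitary, and all 6 markers of neurons were higher in the hypothalamus.

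Retinoic acid is the active form of vitamin A. Retinol is taken up by cells, oxidised to retinal by retinol dehydrogenases, and oxidised again to retinoic acid by the retinaldehyde dehydrogenases ALDH1A1, ALDH1A2 and ALDH1A3. Retinoic acid binds receptors of the RAR family, which act on DNA as pairs with RXR receptors, and enzymes of the CYP26 family break it down. In rodents, retinaldehyde dehydrogenases are made in the developing and adult anterior pituitary, and retinoic acid alters hormone gene expression in cultured pituitary cells. RARRES1 encodes a membrane protein first found as a gene induced by a synthetic retinoid in human skin cells, and it is related in sequence to latexin, an inhibitor of carboxypeptidases.

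ALDH1A1 (ENSACDG00005013139, protein coding, scaffold KZ156055.1, 1299069 to 1336194) was abundant in the pituitary and scarce in the hypothalamus. Levels are counts scaled to a common library total (CPM), over the 16 libraries. In the low growth pituitary it stood at 877 CPM in bird 33, 705 in bird 37, 521 in bird 38 and 942 in bird 40. In the high growth pituitary it stood at 504 CPM in bird 49, 395 in bird 50, 407 in bird 52 and 444 in bird 54. Every low growth bird was above every high growth bird, but the nearest pair, birds 38 and 49, differed little. The means were 761 ± 189 and 437 ± 48.8 CPM (SD, n = 4 each), and the log2 difference was -0.79 ± 0.18 (SE, high minus low). The low growth birds varied more among themselves than the high growth birds did.

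In the hypothalamus the same enzyme gave 30 to 85 counts per library. The low growth birds had 3.06, 3.50, 6.16 and 7.11 CPM, and the high growth birds 2.49, 2.85, 2.71 and 4.88. The groups overlapped, and the log2 difference of -0.62 ± 0.32 did not pass the test, with an unadjusted p of 0.082 and an adjusted p of 0.998 (edgeR's quasi-likelihood F test, Benjamini-Hochberg over 13695 genes). The exact 95% Poisson interval was 5.68 to 8.79 CPM for the highest library, bird 40, and 1.73 to 3.48 for the lowest, bird 49, and such intervals cover counting error only.

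ALDH1A3 (ENSACDG00005012271, protein coding, scaffold KZ155929.1, 2313320 to 2348252) was also a pituitary gene but did not separate the growth groups. The low growth birds had 778, 327, 454 and 411 CPM, in the order of their numbers, and the high growth birds 313, 368, 506 and 778. Bird 33 of low growth and bird 54 of high growth stood at the same level, above all 6 others, which lay between 313 and 506 CPM. The means were 492 ± 197 and 491 ± 208 CPM (SD, n = 4 each), and the log2 difference was 0.0044 ± 0.33. It had no stable direction: leaving out each bird in turn, it ran from -0.31 without bird 54 to 0.30 without bird 33, and 6 of 18 alternatives kept its sign. In the hypothalamus, at 22 to 61 counts per library, the low growth birds had 2.24, 2.01, 3.59 and 2.51 CPM and the high growth birds 3.30, 3.16, 3.05 and 1.60. These groups overlapped too, and the log2 difference of 0.09 ± 0.28 did not pass (edgeR, unadjusted p = 0.751, adjusted p = 0.998).

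The level of ALDH1A3 also depended on the gene model. The authors' second gene table of the same libraries, with ENSABRG identifiers, held 1.94 times as many of its counts over the pituitary libraries and 2.03 times as many over the hypothalamus libraries. Within single pituitary libraries that ratio ran from 1.77 to 2.11. The ratio was 1.01 for ALDH1A1 and 1.12 for RARRES1 in the pituitary. The level of ALDH1A1 changed too in the authors' estimated counts for genes assembled de novo. Over the pituitary libraries these held 0.606 (kallisto) and 0.235 (Salmon) of its main counts, and 0.875 and 0.335 for ALDH1A3. Levels of the genes are therefore not ranked against each other here. Ratios between these genes, given below, are compared only between birds.

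RARRES1 (ENSACDG00005002335, protein coding, scaffold KZ155855.1, 7519639 to 7527603) was higher in the high growth pituitary and was well expressed in both tissues. The low growth birds had 130.4, 159, 154 and 143 CPM in the pituitary, and the high growth birds 229, 281, 197 and 172. The groups did not overlap: the highest low growth bird was 37 and the lowest high growth bird was 54. The means were 146 ± 12.6 and 219.9 ± 47.1 CPM (SD, n = 4 each), and the log2 difference was 0.59 ± 0.15. Here the high growth birds were the more variable.

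In the hypothalamus RARRES1 had 42.2, 57.1, 58.7 and 47.6 CPM in the low growth birds and 50.6, 57.0, 39.5 and 55.2 in the high growth birds. The groups overlapped over nearly their whole range. The log2 difference of -0.02 ± 0.14 did not pass (edgeR, unadjusted p = 0.870, adjusted p = 0.998). As a description, the pituitary difference exceeded the hypothalamus difference by 0.61 ± 0.21 on the log2 scale for RARRES1, and the same quantity was -0.18 ± 0.37 for ALDH1A1 and -0.10 ± 0.50 for ALDH1A3. Over all genes 0 of 14394 (0%) passed this interaction by edgeR, with 206 (1.43%) at an unadjusted p under 0.05.

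**Figure D1:**
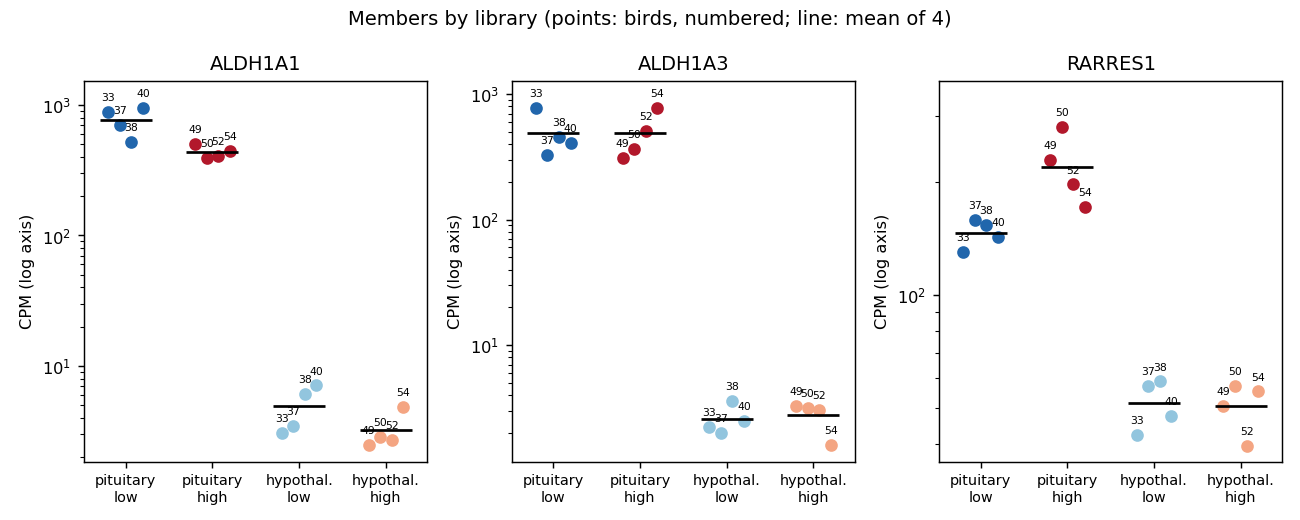
CPM of ALDH1A1, ALDH1A3 and RARRES1 in each library on a log axis, with points for birds and lines for the mean of 4. In the pituitary, ALDH1A1 lies at 521 to 942 CPM in low growth birds and 395 to 504 in high growth birds, RARRES1 at 130.4 to 159 and 172 to 281, while the ALDH1A3 groups overlap.

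Over all genes, the growth comparison gave few calls. In the pituitary edgeR called 0 of 13471 genes (0%) at an adjusted p of 0.05, with 266 (1.97%) at an unadjusted p under 0.05, voom called 0 and DESeq2 called 5 (0.0371%). The authors' deposited table called 51 of its 12486 genes (0.408%), with ALDH1A1 and RARRES1 among them and ALDH1A3 not. The authors' deposited log2 values, turned to high minus low, were -0.79 for ALDH1A1, 0.01 for ALDH1A3 and 0.59 for RARRES1. Groups that did not overlap were found for 195 genes (1.45%), with 82 (0.609%) lower in high growth as ALDH1A1 was and 113 (0.839%) higher as RARRES1 was. The 5 DESeq2 calls in the pituitary held ALDH1A1 but not ALDH1A3 or RARRES1. The choice of genes used this contrast, so calls of these genes in it add no support. In the hypothalamus, which the choice did not name, 0 of the 3 genes passed, against 0 of 13695 (0%) by edgeR, 456 (3.33%) at an unadjusted p under 0.05, 0 by voom, 2 (0.0146%) by DESeq2 and 62 (0.497%) in the authors' deposited table, which held none of the 3 among its calls. None of the 3 had groups without overlap there, against 1.98% of all genes, 1.18% with the high growth birds above and 0.803% with them below.

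Ratios of counts within a library describe the same levels without scaling. As ALDH1A1 and RARRES1 were chosen on this contrast and each separates the groups in the opposite direction, the separation of their ratio follows from their levels and adds no support. The ratio of ALDH1A1 counts to RARRES1 counts was 6.72, 4.44, 3.39 and 6.61 in low growth birds. In high growth birds it was 2.20, 1.41, 2.06 and 2.58. Bird 38 of low growth was the one nearest to the high growth birds. The ratio of ALDH1A1 to ALDH1A3 was 1.13, 2.16, 1.15 and 2.30 in low growth birds against 1.61, 1.07, 0.804 and 0.571 in high growth birds, which overlap. The ratio of RARRES1 to ALDH1A3 ran from 0.168 to 0.485 in low growth birds and from 0.221 to 0.763 in high growth birds, which overlap too. The size of both ratios to ALDH1A3 depends on the gene model, as the level of ALDH1A3 does.

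**Figure D2:**
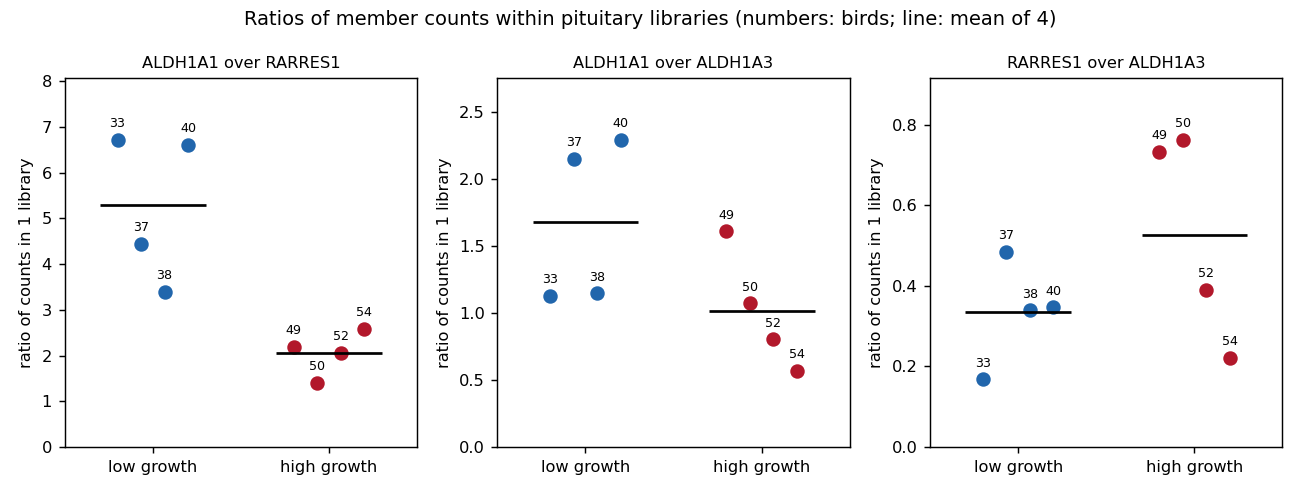
Ratios of the counts of paired genes within each pituitary library, on linear axes from 0, with points for birds and lines for the mean of 4. ALDH1A1 over RARRES1 lies at 3.39 to 6.72 in low growth birds and 1.41 to 2.58 in high growth birds, while the other ratios overlap between groups.

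Between the tissues, ALDH1A1 and ALDH1A3 differed far more than RARRES1 did. ALDH1A1 averaged 599 ± 215 CPM in the pituitary and 4.09 ± 1.75 in the hypothalamus (SD, n = 8 each), and the log2 difference was 7.16 ± 0.22. ALDH1A3 averaged 492 ± 188 and 2.68 ± 0.70 CPM, a log2 difference of 7.51 ± 0.28. RARRES1 averaged 183 ± 50.6 and 51.0 ± 7.28 CPM, a log2 difference of 1.81 ± 0.11. By size of the difference towards the pituitary, the genes ranked 27 (ALDH1A3), 35 (ALDH1A1) and 866 (RARRES1) of 14394. All 3 were higher in the pituitary in 8 of 8 birds, with ratios within a bird of 84.6 to 287 for ALDH1A1, 94.8 to 485 for ALDH1A3 and 2.62 to 4.99 for RARRES1. Of all genes, 14.9% were called higher in the pituitary and 19.5% higher in the hypothalamus (edgeR, adjusted p under 0.05 and at least 2-fold).

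Hormone transcripts of the pituitary were also read in the hypothalamus, at small shares of their pituitary means. POMC still averaged 97.9 CPM there, and whether cells of the hypothalamus make these transcripts was not tested. The hypothalamus mean was 0.683% of the pituitary mean for ALDH1A1 and 0.546% for ALDH1A3. The same share was 0.0531% for PRL, 0.0764% for CGA, 0.2998% for POMC, 0.273% for the transcription factor POU1F1 and 0.840% for CHGA, which neurons also make. For RARRES1 it was 27.8%.

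The third retinaldehyde dehydrogenase, ALDH1A2 (ENSACDG00005007680, scaffold KZ155857.1, 2185879 to 2240145), was higher in the pituitary as well. It averaged 166 ± 90.9 CPM there and 49.8 ± 5.21 in the hypothalamus, a log2 difference of 1.73 ± 0.27 (edgeR, adjusted p = 1.97e-05). Its pituitary levels were 114, 233, 137 and 222 CPM in low growth birds and 105, 99.3, 76.6 and 340.4 in high growth birds. Bird 54, which shared the highest ALDH1A3 level, was also the highest for ALDH1A2. The groups overlapped, and the growth difference of -0.18 ± 0.46 in the pituitary did not pass (edgeR, adjusted p = 1.00), nor did that of -0.01 ± 0.10 in the hypothalamus (adjusted p = 0.998).

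Of 54 other genes of retinoid uptake, metabolism, reception and response, 26 had a named row in the main table and all 26 were tested. Between tissues, 6 passed as higher in the pituitary and 2 as higher in the hypothalamus, against 14.9% and 19.5% of all genes, and their median log2 difference was 0.67 against 0.057 over all genes. Upstream of the dehydrogenases, STRA6, the membrane receptor that takes retinol from its carrier, was at 188 ± 64.8 CPM in the pituitary and 33.2 ± 20.7 in the hypothalamus (log2 2.50 ± 0.35, adjusted p = 6.05e-06). RDH10, which oxidises retinol to retinal, was at 83.8 ± 15.5 CPM in the pituitary and 20.1 ± 3.71 in the hypothalamus (log2 2.06 ± 0.13, adjusted p = 5.13e-10). The retinol dehydrogenases RDH5 and RDH14 went the other way, by log2 differences of -1.73 ± 0.25 (adjusted p = 1.1e-05) and -1.45 ± 0.08 (adjusted p = 1.67e-10). RDH5 was at 2.76 CPM in the pituitary and 9.02 in the hypothalamus, and RDH14 at 12.6 and 34.3. So the retinol dehydrogenases named here did not all lie on the same side. Which of them supply retinal to ALDH1A1 and ALDH1A3 was not tested.

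Downstream, the breakdown enzyme CYP26A1 was low in both tissues, at 3.03 ± 1.14 CPM in the pituitary and 1.38 ± 0.61 in the hypothalamus, and passed as higher in the pituitary (log2 1.12 ± 0.30, adjusted p = 0.00322). The coactivator NCOA3 (1.45 ± 0.08, adjusted p = 5.94e-11) and MEIS2, a homeobox gene that responds to retinoic acid (1.22 ± 0.15, adjusted p = 2.13e-06), passed in the same direction. The receptors RARB and RXRA were higher in the pituitary by log2 0.92 ± 0.10 (adjusted p = 5.74e-07) and 0.95 ± 0.16 (adjusted p = 5.1e-05), which is under the 2-fold limit. All these are edgeR values over 14394 genes.

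**Figure D3:**
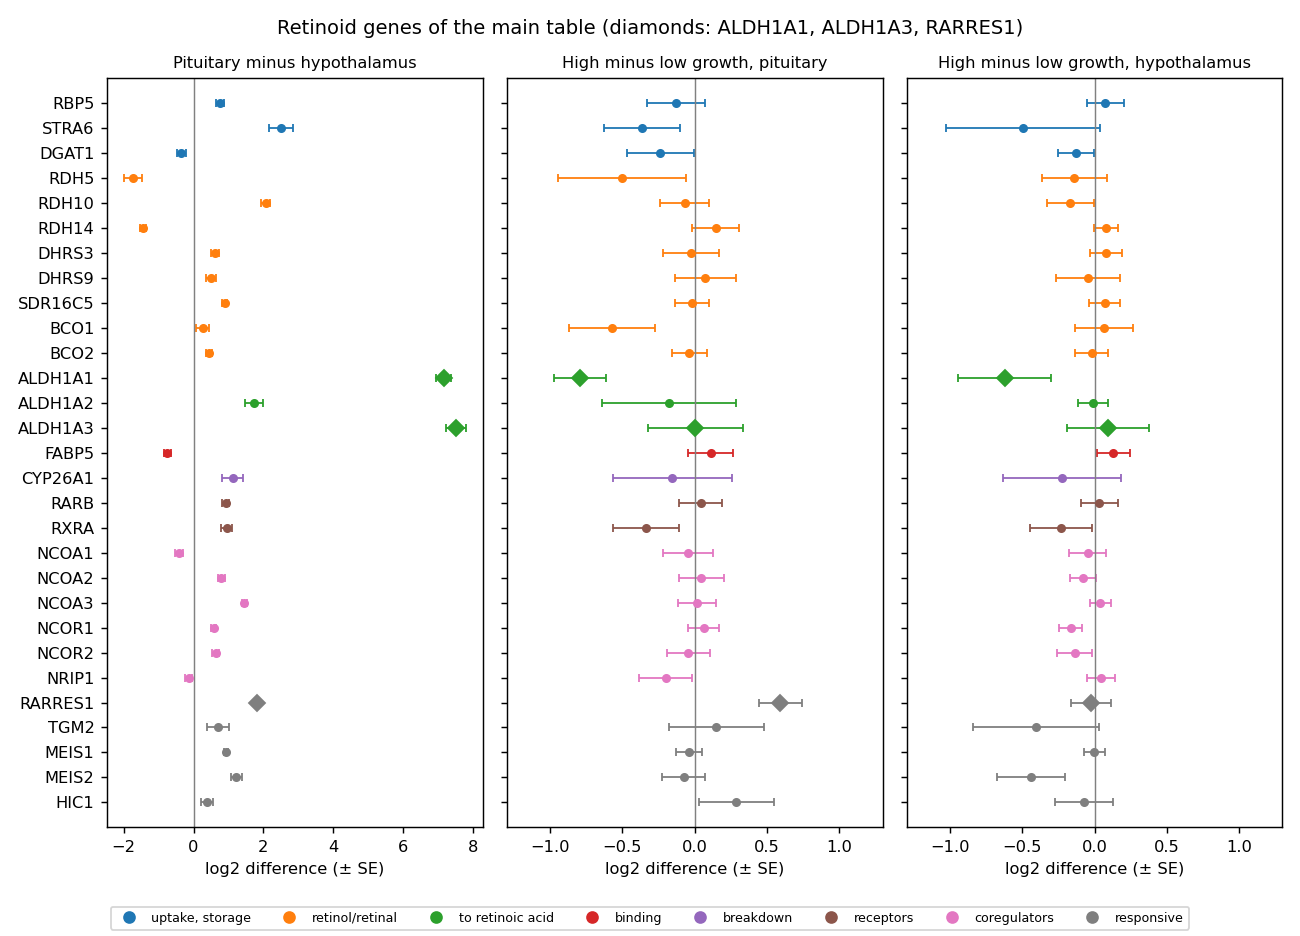
Log2 differences with SE (bars) of ALDH1A1, ALDH1A3 and RARRES1 (diamonds) and of 26 other retinoid genes (circles), coloured by role: pituitary minus hypothalamus, then high minus low growth in each tissue. ALDH1A1 and ALDH1A3 lie at 7.16 and 7.51 in the first panel. In the growth panels the other genes lie nearer to 0 than ALDH1A1 and RARRES1, chosen with this contrast in view, do in the pituitary. The margin is small for BCO1, at -0.57 ± 0.30 in the pituitary against 0.59 ± 0.15 for RARRES1.

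With growth rate, none of those 26 genes passed in either tissue by edgeR, where 0% of all genes passed. At an unadjusted p under 0.05 it was 0 in the pituitary and 0 in the hypothalamus, against 1.97% and 3.33% of all genes. DESeq2 and voom also called 0 of the 26, where voom called 0 of all genes and DESeq2 called 5 in the pituitary and 2 in the hypothalamus. These zeros are therefore no result particular to the 26 genes. In each tissue 9 were higher and 17 lower in high growth birds, with medians of -0.04 in the pituitary and -0.05 in the hypothalamus, against 0.0037 and -0.0050 over all genes. In the pituitary RARB, itself a target of retinoic acid, differed by 0.04 ± 0.15, CYP26A1 by -0.15 ± 0.41, RXRA by -0.34 ± 0.23 and STRA6 by -0.37 ± 0.26 (adjusted p = 1.00 for each). In the hypothalamus these were 0.03 ± 0.13 for RARB, -0.22 ± 0.41 for CYP26A1, -0.23 ± 0.21 for RXRA and -0.50 ± 0.53 for STRA6 (adjusted p = 0.998 for each).

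Another 13 of the 54 genes had no named row but matched a gene of the authors' de novo assembly by protein name, a source added after the data were seen. In estimated counts from kallisto, 3 of the 13 passed on the pituitary side and 3 on the hypothalamus side, against 12.7% and 14.7% of 110655 assembled genes. Those on the pituitary side included RBP7, a cellular retinol carrier (log2 1.35 ± 0.39, adjusted p = 0.011), and RARRES2, which encodes chemerin (1.07 ± 0.09, adjusted p = 5.01e-08), although the protein match of RARRES2 had only 39.6% identity. RBP7 was scarce, averaging 1.65 and 3.09 CPM in the low and high growth pituitary and 0.86 and 0.91 in the hypothalamus. Its protein match had 76.1% identity. CRABP1, which binds retinoic acid in the cytoplasm, averaged 0.83 and 0.93 CPM in the low and high growth pituitary and 22.3 and 22.2 in the hypothalamus, a log2 difference of -4.66 ± 0.25 (adjusted p = 2.21e-10). LRAT, which stores retinol as esters, differed by -2.04 ± 0.22 (adjusted p = 9.54e-07), and TTR, a plasma carrier, by -4.69 ± 0.61 (adjusted p = 1.05e-05). LRAT was scarce, averaging 0.73 and 0.90 CPM in the low and high growth pituitary and 3.34 and 3.35 in the hypothalamus. The protein match of LRAT had 73.2% identity, with 64.8% of the matched protein aligned. CRABP2 (-1.01 ± 0.47, adjusted p = 0.101), RARA (-0.09 ± 0.13) and RXRB (-0.27 ± 0.11, adjusted p = 0.0676) did not pass. With growth rate 0 of the 13 passed in either tissue, against 0 of 92645 assembled genes (0%) in the pituitary and 0 of 88359 (0%) in the hypothalamus. At an unadjusted p under 0.05 it was 1 of the 13 in each tissue, against 2.11% and 2.55% of assembled genes. In both tissues this was DHRS4, higher in high growth birds. It differed by 1.59 ± 0.52 in the pituitary (edgeR, unadjusted p = 0.0133) and 1.33 ± 0.36 in the hypothalamus (unadjusted p = 0.00517). Its means were 5.79 ± 2.30 and 17.3 ± 11.6 CPM (SD) in the low and high growth pituitary. In the hypothalamus they were 5.48 ± 1.31 and 13.6 ± 6.96 CPM. Both tissues come from the same birds, so they are not separate observations. The protein match of DHRS4 had 57.4% identity. The other 15 genes are not described here.

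Of 12 listed aldehyde dehydrogenases outside the retinoid group, 7 were named, and 0 passed as higher in the pituitary while 2 passed as higher in the hypothalamus (14.9% and 19.5% of all genes), with a median log2 difference of -0.73. These were the mitochondrial enzymes ALDH5A1, which breaks down a product of GABA (-2.10 ± 0.07, edgeR adjusted p = 2.95e-13), and ALDH6A1, of valine breakdown (-1.26 ± 0.07, adjusted p = 6.98e-11). With growth rate 0 of the 7 passed by edgeR in either tissue, as for all genes (0%). At an unadjusted p under 0.05 it was also 0, against 1.97% of all genes in the pituitary and 3.33% in the hypothalamus.

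RARRES1 lay beside its relative LXN, which encodes latexin, on scaffold KZ155855.1, where LXN runs from 7534973 to 7540916. The genes were 7369 bases apart, and the authors' table listed 0 genes between them. LXN was at 6.39 CPM in the pituitary and 1.86 in the hypothalamus on average, a log2 difference of 1.78 ± 0.16 (edgeR, adjusted p = 4.66e-08), close in size to the 1.81 of RARRES1. With growth rate LXN stood at 6.18 ± 0.91 CPM in the low and 6.60 ± 0.78 in the high growth pituitary, which overlapped (log2 0.10 ± 0.20, adjusted p = 1.00). Among carboxypeptidases, the enzyme class that latexin inhibits, and LXN itself, 9 of 15 genes were named, of which 4 passed as higher in the pituitary and 0 as lower (14.9% and 19.5% of all genes). Beside LXN these were CPZ (3.59 ± 0.35, adjusted p = 9.76e-08), CPQ (2.00 ± 0.07, adjusted p = 2.65e-13) and CPM (1.48 ± 0.17, adjusted p = 9.74e-07). With growth rate 0 of the 9 passed by edgeR in either tissue, as for all genes (0%). At an unadjusted p under 0.05 it was also 0, against 1.97% of all genes in the pituitary and 3.33% in the hypothalamus.

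Within growth groups, birds with more ALDH1A3 in the pituitary had less RARRES1. Over the 8 birds, with log2 CPM centred on each group, Pearson's r was -0.80 (exact permutation within groups, two-sided, p = 0.0295) and Spearman's rho was -0.881 (exact p = 0.0278). After adjustment over the 9 relations computed, p was 0.266 for r and 0.25 for rho, so it did not pass. Leaving out each bird in turn, r ran from -0.96 to -0.65. Without the 2 birds farthest from the median r was -0.54, and without centring on the groups it was -0.47. The lowest adjusted p over the alternatives was 0.0938 (exact permutation), so it passed in none of them. For ALDH1A1 and ALDH1A3 in the pituitary r was 0.118 (exact p = 0.799) and rho 0.048, and for ALDH1A1 and RARRES1 r was -0.307 (exact p = 0.306). Between the tissues of the same bird, r for RARRES1 was 0.488 (exact p = 0.295) with rho 0.571, and r was 0.92 without bird 54. None of the 9 relations passed the adjustment, and 8 birds limit what they can show.

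**Figure D4:**
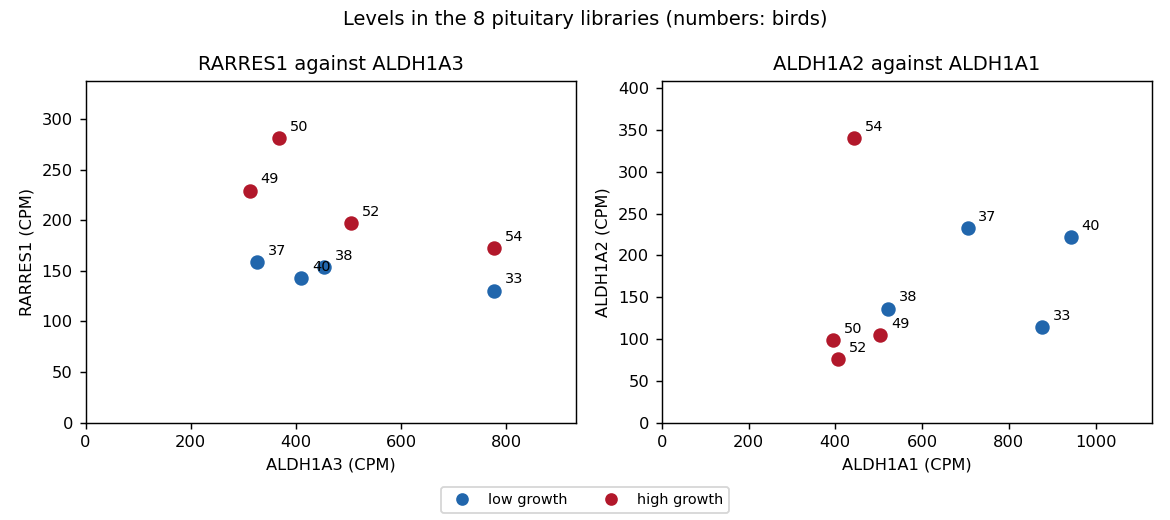
CPM of RARRES1 against ALDH1A3 (left) and of ALDH1A2 against ALDH1A1 (right) in the 8 pituitary libraries, on linear axes from 0, with points for birds coloured by growth group. Birds 33 and 54, the highest for ALDH1A3 at 778 CPM, have the lowest RARRES1 of their groups, 130.4 and 172 CPM, and bird 54 has the highest ALDH1A2 at 340.4 CPM.

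The spread between birds of a group was wide for ALDH1A3 in the pituitary. Its biological coefficient of variation in the pituitary was 0.33, above 94.2% of the 500 genes nearest to it in level, whose median was 0.144. ALDH1A1 had 0.199 (above 85.4% of its neighbours) and RARRES1 0.167 (above 76%). In the hypothalamus the values were 0.311 for ALDH1A1 (above 84.2% of its neighbours), 0.253 for ALDH1A3 (above 65.2%) and 0.143 for RARRES1 (above 86.4%).

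The genes whose pituitary levels followed each one most closely were found among 8112 named genes of at least 10 CPM, over 8 libraries that share their preparation and differ in depth. ALDH1A1 was most like NACC2, a transcriptional repressor (r = 0.937, and 0.823 within groups), LYSMD3 (0.921), the glutamate receptor GRM7 (0.917), the chaperone partner ST13 (0.913) and the translation factor EIF5B (0.909). Within groups the r values of those after NACC2 were lower, from 0.696 for ST13 to 0.772 for EIF5B. ALDH1A1 ran most opposed to the ion channel ASIC2 (-0.891), ABCC9 (-0.875) and MICAL3 (-0.873), with -0.8, -0.72 and -0.86 within groups. ALDH1A3 was most like EPS15, a protein of endocytosis (0.941, and 0.941 within groups), SPHKAP (0.94), USP42 (0.935), SMPDL3A (0.928) and CLPX (0.924), and most opposed to APBB1IP (-0.942), IVNS1ABP (-0.939) and SYNGR2 (-0.906). RARRES1 was most like AP2S1, a subunit of an endocytic adaptor (0.953, and 0.87 within groups), NDUFAF3 (0.933), TRIM8 (0.93), BOLA3 (0.922) and VAMP1 (0.921). Within groups the r values of those after AP2S1 ran from 0.735 for VAMP1 to 0.931 for TRIM8. RARRES1 ran most opposed to the protease CAPN7 (-0.976), the BMP receptor BMPR1A (-0.957) and IQGAP1 (-0.957), with -0.958, -0.864 and -0.969 within groups. With so many genes ranked over 8 libraries these r values are a description, and no gene of the retinoid lists was among them.

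The summed levels of markers of each cell type that the pituitary samples can hold overlapped between the growth groups. The summed CPM of 8 named of 9 markers of folliculostellate and stem-like cells ran from 422 to 1705 in low growth birds and from 443 to 1791 in high growth birds. The high values were in birds 38, 40 and 50, and VIM made up much of the sum, with a mean of 765 ± 589 CPM (SD, n = 8). Of these 8 markers, 7 were lower in the high growth pituitary, the direction of ALDH1A1, with a median log2 difference of -0.15, and 0 passed by edgeR or had an unadjusted p under 0.05. SOX2, a transcription factor of stem-like cells, differed by -0.28 ± 0.13 (unadjusted p = 0.0631, adjusted p = 1.00). The 7 named of 13 endocrine markers summed to 106431 to 152111 CPM and 132586 to 156186. Of these 7 markers, 4 were higher and 3 lower in the high growth pituitary, and 0 passed by edgeR. Both corticotroph markers were higher, the direction of RARRES1, TBX19 by 0.41 ± 0.17 (edgeR, unadjusted p = 0.0342, adjusted p = 1.00) and POMC by 0.41 ± 0.19 (unadjusted p = 0.0574, adjusted p = 1.00). PRL (0.18 ± 0.39) and CHGA (0.05 ± 0.24) were also higher. The lower ones were NR5A1 by -0.54 ± 0.31 (edgeR, unadjusted p = 0.113), CGA by -0.23 ± 0.40 and POU1F1 by -0.06 ± 0.17. Divided by those endocrine sums, a scaling added after the data were seen, the growth difference was -0.88 for ALDH1A1, -0.13 for ALDH1A3 and 0.45 for RARRES1. The remaining sums, low then high growth, were 823 to 2521 and 1151 to 2456 for connective tissue (6 of 8 markers), 95.4 to 233 and 87.1 to 153 for endothelium (4 of 5), 26.7 to 113 and 46.7 to 136 for macrophages (5 of 5), and 30.9 to 75.2 and 25.7 to 127 for neural lobe and astrocytes (3 of 6). They were 483 to 583 and 403 to 571 for neurons (6 of 6), and 28.3 to 206 and 32.2 to 929 for skeletal muscle (2 of 5), with bird 50 highest. Single markers could still separate: the endothelial receptor KDR stood at 43.3 to 46.2 CPM in low and 46.6 to 64.4 in high growth birds (edgeR, adjusted p = 1.00). Of all genes, 1.45% had groups without overlap in the pituitary, 0% passed by edgeR and 1.97% had an unadjusted p under 0.05. The other 3 named endothelial markers were lower in high growth birds, CDH5 by -0.05 ± 0.16, TEK by -0.23 ± 0.27 and VWF by -0.33 ± 0.70. No marker was at 0 in any pituitary library, and the part of cell makeup in the differences of ALDH1A1 and RARRES1 was not tested.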

How the data were processed

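Each library was quantified 4 ways by the authors. The main values are whole-number counts per gene (ENSACDG identifiers), as deposited; a second table of counts has ENSABRG identifiers. For genes assembled de novo, the authors deposited estimated counts (kallisto, Salmon), rounded here. The authors' deposited comparison tables hold p-values, a fold ratio and log2 of that ratio. Their direction, not named in the headers, was taken as low over high because 51 of 51 called pituitary genes and 62 of 62 called hypothalamus genes had the opposite sign to high minus low. The submitters' processing notes list STAR, RSEM, FastQC, Salmon, kallisto and DESeq2, with no roles. The only build named there is of the pig (Sscrofa11.1), and the goose assembly of the coordinates is not given in these sources. Libraries were TruSeq v2 and RIN was over 7, per the labels' protocols.

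Counts were filtered with filterByExpr, scaled by TMM and tested by edgeR's quasi-likelihood F test in R 4.3.3 (limma 3.58.1, edgeR 4.0.16), with p-values adjusted over all genes by Benjamini-Hochberg at 0.05. Growth was fitted within each tissue. Tissue and its interaction with growth were fitted over 16 libraries with 4 group means, and a tissue call also needed 2-fold. SE came from the F statistic. Correlations and likeness used log2 CPM with a prior count of 2. Replicates are birds. The method was checked on simulated counts. Alternatives were DESeq2 1.42.0, voom, other size factors, no filter, the other tables, leaving out each bird and replicate blocks.

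The genes and all lists were chosen with earlier results of these data known. Of the lists, the text names up to 5 genes per list, direction and contrast that passed, by size of difference, with all ALDH1A, CYP26, RAR, RXR and CRABP genes found, and for likeness the 5 highest and 3 lowest r. Samples with the same bird number come from the same bird, per the titles, and their deviations from the group means correlated across tissues, r 0.184 to 0.389 over the 8 birds. A gene of the retinoid lists that passed between tissues is not reported here.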

Additional observations from a re-analysis of the deposited data

Results flagged for a closer look

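A library far from the other 3 of its group was found in 7 of 76 groups of values checked, and chance gives about 1 in 20. In the high growth hypothalamus, bird 54 had 4.879 CPM of ALDH1A1, above 2.49 to 2.85 in the others, and 1.605 CPM of ALDH1A3, below 3.05 to 3.30. Their exact 95% Poisson intervals were 3.84 to 6.11 and 1.04 to 2.37 CPM. In the high growth pituitary, bird 54 also had 340.4 CPM of ALDH1A2 and 66.27 CPM of CPQ, both the highest of the group. RXRA stood at 3.26 CPM in the hypothalamus of bird 33, apart from the other low growth birds. ALDH6A1 stood apart at 61.98 CPM in the pituitary of bird 40 and at 133.1 CPM in the hypothalamus of bird 50.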

How the results depend on the processing

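Over all alternatives run, the pituitary growth difference stayed between -0.95 and -0.67 for ALDH1A1 and between 0.45 and 0.69 for RARRES1, and no growth call was gained or lost among the other retinoid genes. RARRES1 was not matched in the de novo tables, which gave no value for it. Tissue calls of those retinoid genes were 5 to 7 higher and 2 lower in the pituitary. Bird as a replicate block gave tissue differences of 7.17, 7.43 and 1.81 for ALDH1A1, ALDH1A3 and RARRES1. Birds of the 2 growth groups that share a replicate number showed no steady likeness. Their r ran from -0.198 to 0.403 in the pituitary and from -0.191 to 0.123 in the hypothalamus. Whether these numbers pair birds was not tested. As a block, the replicate number gave pituitary growth differences of -0.76 and 0.57 for ALDH1A1 and RARRES1. Leaving out each bird in turn, the hypothalamus growth difference ran from -0.015 to 0.30 for ALDH1A3 and from -0.10 to 0.076 for RARRES1, and the interaction of ALDH1A3 from -0.60 to 0.29. That of ALDH1A1 ran from -0.44 to 0.084, above 0 without bird 33 or 54, and its hypothalamus difference from -0.88 to -0.39. For ALDH1A3 the other quantifications gave larger hypothalamus growth differences than the 0.09 of the main counts. They were 0.33 (ENSABRG), 0.37 (kallisto) and 0.38 (Salmon). Correlations within groups ran, leaving out each bird, from -0.15 to 0.34 for ALDH1A1 with ALDH1A3 in the pituitary and -0.43 to 0.67 in the hypothalamus, from -0.34 to 0.38 for ALDH1A3 with RARRES1 in the hypothalamus, and between tissues from -0.62 to 0.35 for ALDH1A1, from -0.82 to -0.020 for ALDH1A3 and from 0.34 to 0.92 for RARRES1. Uncentred, r was -0.0039 for ALDH1A3 with RARRES1 in the hypothalamus and 0.39 for ALDH1A1 between tissues. In the pituitary it was -0.47 for ALDH1A3 with RARRES1 and -0.78 for ALDH1A1 with RARRES1, against -0.307 centred for the latter pair. ALDH1A1 and RARRES1 were chosen on the pituitary growth contrast and separate its groups in opposite directions. Their uncentred r holds that group difference and adds no support. Without the 2 birds farthest from the median r was 0.82 for ALDH1A1 with ALDH1A3 and -0.0038 for ALDH1A3 with RARRES1 in the hypothalamus. Between tissues it was 0.38 for ALDH1A3 and 0.94 for RARRES1. In the ENSABRG table ALDH1A1 with ALDH1A3 gave 0.060 and ALDH1A3 with RARRES1 gave -0.012, both in the hypothalamus. The cause of the other moves was not tested. The 22 to 85 counts per hypothalamus library limit ALDH1A1 and ALDH1A3 there.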
